A study of Mus musculus with 28 samples.

Results

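The genes described here are 8 genes that mark the astrocyte cytoskeleton and its reactive state: the intermediate filament genes Gfap, Vim and Nes, the calcium-binding protein gene S100b, the secreted factors Serpina3n and Lcn2, the surface receptor Cd44 and the lectin Lgals3. They were chosen by name, and all 8 were found among the 23453 genes of the exonic table and the 20422 genes of the intronic table. RNA was sequenced from 28 single cells of mouse cortex. The sample labels name 8 astrocytes and 12 neurons from primary culture of C57/BL6 mice, harvested by pipette, and 8 interneurons of C57/BL6/N mice taken by patch-clamp pipette from acute slices of prefrontal cortex. No animal or culture is named for any cell. The growth text for the cultured cells speaks of a male mouse aged 3 months that was perfused and fixed, and describes no culture step. In the paper, a male of that age was the source of the brain tissue sections. Its dispersed mouse neuron and astrocyte cultures were made from embryos of both sexes. The paper does not separately describe the cultures used for RNA. The labels also give the cultured and the slice cells different library kits and sequencers, so that cell type and preparation cannot be told apart between them.

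The tables name their 28 columns by codes that match no label. No column was therefore given a cell type, nothing was tested between columns, and the values below are descriptions of single cells. By the codes alone, and the widest gap in their numbering, the columns fall into 8 cells coded between BRP564 and BRP572, 12 cells coded between BRP528 and BRP543, and 8 cells coded between F1 and F24. These are called the upper BRP cells, the lower BRP cells and the F cells, after the code numbers. The split uses the names alone but was chosen with the values known, so it is not independent of them. Exonic counts per cell ran from 12969692 to 19798892 in the upper BRP cells, from 17483754 to 26770944 in the lower BRP cells and from 838343 to 14831505 in the F cells. Levels are exonic counts per 1000000 exonic counts of the cell (CPM). A gene with 0 counts may have held up to 3, which is 0.112 CPM in the deepest cell and 3.58 CPM in the shallowest, F16.

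Astrocytes build their intermediate filaments from GFAP and vimentin, to which nestin can be added, and these proteins assemble into the cables that give the cell its processes and stiffness. GFAP is the classical marker of astrocytes and rises in reactive gliosis, the response to injury or inflammation, in which vimentin and nestin, the latter typical of neural precursors, rise as well. Reactive astrocytes are also known to secrete the protease inhibitor Serpina3n and the iron-siderophore carrier lipocalin 2, and to carry more of the hyaluronan receptor CD44. Astrocytes in culture are known to share part of this state. Galectin-3, encoded by Lgals3, is best known from activated microglia and macrophages but is also made by reactive astrocytes.

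The 3 filament genes are on separate chromosomes. By GENCODE M21 (GRCm38, equal to mm10) Gfap spans 102887336 to 102900912 of chromosome 11 (minus strand), Vim 13573927 to 13582826 of chromosome 2 (plus strand) and Nes 87971078 to 87980451 of chromosome 3 (plus strand). The 250 bases before the RefSeq start site of each (GRCm38.p6) are shown because these genes were high in the same cells. They cover chr11:102897201-102897450 on the minus strand for Gfap, chr2:13574061-13574310 on the plus strand for Vim and chr3:87970843-87971092 on the plus strand for Nes. Capitals mark a TATA box (TATAAA).

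Gfap: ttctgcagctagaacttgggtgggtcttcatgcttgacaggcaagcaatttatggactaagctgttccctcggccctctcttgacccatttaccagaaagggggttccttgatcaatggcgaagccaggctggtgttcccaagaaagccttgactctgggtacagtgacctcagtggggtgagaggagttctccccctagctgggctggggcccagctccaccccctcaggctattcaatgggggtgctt
Vim: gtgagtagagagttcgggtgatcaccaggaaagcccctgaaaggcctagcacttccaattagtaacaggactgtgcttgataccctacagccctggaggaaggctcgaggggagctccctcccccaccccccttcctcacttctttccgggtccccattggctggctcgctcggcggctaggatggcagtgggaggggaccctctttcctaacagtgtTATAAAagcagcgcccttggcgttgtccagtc
Nes: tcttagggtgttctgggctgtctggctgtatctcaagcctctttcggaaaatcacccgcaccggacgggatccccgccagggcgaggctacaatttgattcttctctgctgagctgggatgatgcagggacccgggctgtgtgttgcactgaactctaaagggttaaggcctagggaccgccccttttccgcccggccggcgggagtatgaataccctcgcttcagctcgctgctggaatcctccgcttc

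Of the 8 promoters, 1 held TATAAA on either strand, that of Vim at 32 bases before the start site, as did 12.4% of the 32851 RefSeq promoters of this length. The letters TTCNNNGAA, read by STAT factors, stood in none of the 8 and in 7.02% of all promoters. TGANTCA, the AP-1 motif, stood in none of the 8 and in 6.75% of all. TTGGCA, read by nuclear factor I, stood in the promoters of S100b (19 bases before the start) and Lcn2 (166 bases before) and in 12.3% of all promoters. These are matches of letters only, on both strands. The promoters of the 3 filament genes thus shared none of the 4 motifs.

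Gfap, the filament protein that defines astrocytes, reached at least 10 CPM in 9 of the 28 cells (32.1%, 95% exact binomial interval 15.9 to 52.4%). These were the 8 upper BRP cells and BRP528. In the upper BRP cells the level ran from 66.8 CPM in BRP572 over a median of 153 to 1584 CPM in BRP568, and BRP570 was next with 874 CPM. The other 6 lay between 66.8 and 211 CPM, so that Gfap was high in BRP568 and BRP570 and moderate in the rest. BRP568 alone held 44.1% of all 59189 exonic counts of the gene. Outside these cells Gfap was at 115 CPM in BRP528, 7.43 in BRP529, 5.13 in BRP534, 1.38 in F7 and at most 0.179 CPM elsewhere, and 11 cells held no count. BRP528 therefore overlapped the lower part of the upper BRP cells.

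**Figure D1:**
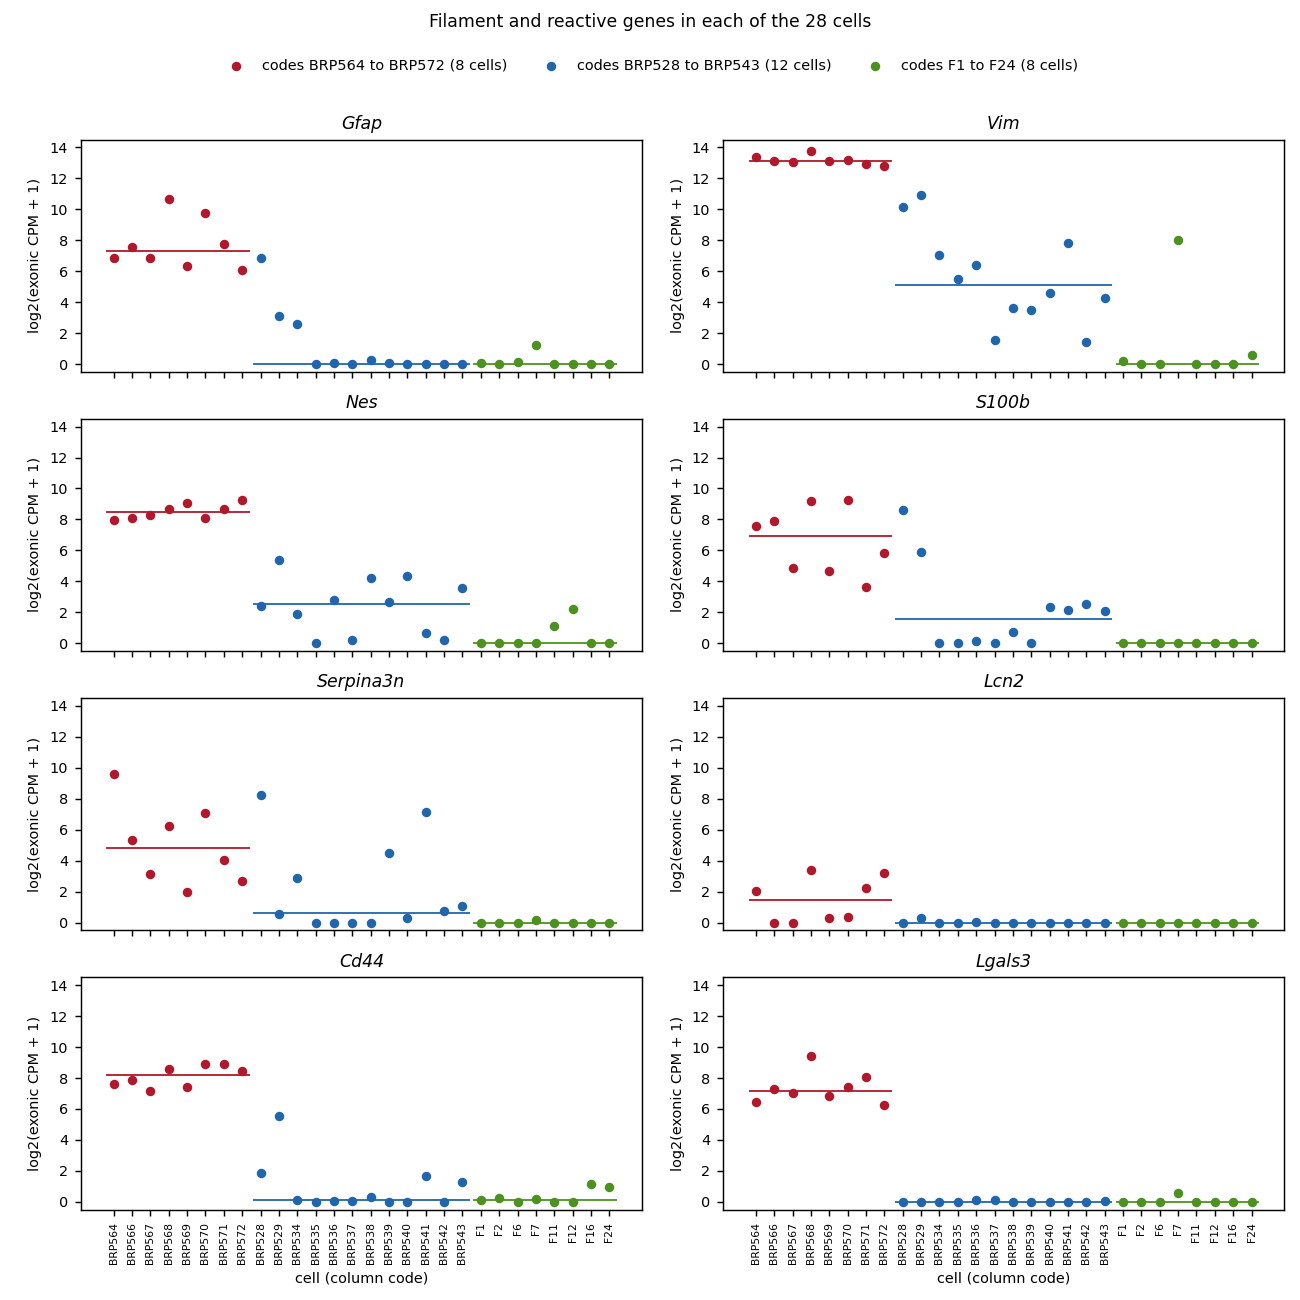
Level of each gene in each cell. The y axis is log2(exonic CPM + 1), the x axis the column codes, each point a cell, and the line the median of the cells of one code run. Vim, Nes, Cd44 and Lgals3 lay higher in all 8 upper BRP cells (red) than in any other cell, as did 3.04% of the genes compared. Gfap, S100b and Serpina3n overlapped with BRP528, and Lcn2 stayed under 10 CPM in all 28 cells.

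Vim, which encodes the filament protein vimentin of astrocytes, precursors and mesenchymal cells, was the most abundant of the 8 genes in the upper BRP cells, by CPM and per exon length. It ranked between 1 and 4 among all genes by exonic counts in each of the upper BRP cells, where it ran from 7231 CPM in BRP572 over a median of 8873 to 13996 CPM in BRP568. The 8 cells thus lay within 1.94-fold of each other. All 12 of the lower BRP cells held Vim counts as well, from 1.70 CPM in BRP542 over a median of 33.0 to 1900 CPM in BRP529. BRP528 followed with 1112 CPM and BRP541 with 220 CPM. Among the F cells, F7 held 259 CPM and the others at most 0.473 CPM, with 5 at 0. At 10 CPM or more, Vim was found in 19 of 28 cells (67.9%, 47.6 to 84.1%).

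Nes, which encodes nestin, the filament protein of neural stem and precursor cells, ran from 244 CPM in BRP564 over a median of 358 to 609 CPM in BRP572, a 2.50-fold range. BRP572, the cell with most Nes, had the least Gfap and the least Vim of the 8. In the lower BRP cells Nes ran from 0 in BRP535 over a median of 4.84 to 40.1 CPM in BRP529, and BRP538, BRP540 and BRP543 also passed 10 CPM with 17.9, 19.7 and 10.8 CPM. These 4 cells bring the share at 10 CPM to 12 of 28 (42.9%, 24.5 to 62.8%). The F cells held 3.69 CPM in F12 and 1.14 CPM in F11, from 10 and 5 counts, and 0 in the other 6.

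S100b, a calcium-binding protein used as a marker of mature astrocytes, spans 76253853 to 76261159 of chromosome 10 (plus strand). It varied far more than the structural genes Vim and Nes. In the upper BRP cells it ran from 11.4 CPM in BRP571 over a median of 122 to 604 CPM in BRP570, a 52.9-fold range, with BRP568 close to the top at 575 CPM. The highest cells for S100b were thus the same pair as for Gfap, while BRP571, next after them for Gfap, was last for S100b. BRP528 held 396 CPM and BRP529 59.0 CPM, inside the range of the upper BRP cells. The other lower BRP cells reached at most 4.82 CPM, and no F cell held a count. In all, 10 of 28 cells were at 10 CPM or more (35.7%, 18.6 to 55.9%).

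Serpina3n, a secreted inhibitor of serine proteases, spans 104406729 to 104414329 of chromosome 12 (plus strand). Among the 7 genes present in all upper BRP cells it had the widest range there, 266-fold. BRP564 held 778 CPM, which was 47.0% of all counts of the gene, and BRP570 and BRP568 followed with 132 and 74.8 CPM. The other 5 of these cells lay between 2.93 CPM in BRP569 and 40.2 CPM in BRP566, and 3 of them were under 10 CPM. In the lower BRP cells, BRP528 with 297 CPM, BRP541 with 139 CPM, BRP539 with 21.3 CPM and BRP534 with 6.23 CPM lay inside the range of the upper BRP cells. BRP541 and BRP539 had at most 1 count of Gfap, so Serpina3n was also found in cells with next to no Gfap. BRP541 also held oligodendrocyte precursor markers, with Olig1 at 503, Pdgfra at 200 and Olig2 at 122 CPM, the myelin gene Mbp at 107 CPM and a summed 340 CPM of the 4 genes of dividing cells. The part of these markers in its Serpina3n and Vim was not tested. In the F cells 1 count was found, in F7. The gene belongs to a cluster of 11 Serpina3 genes of related sequence. Of the counts on the cluster, 99.6% were assigned to Serpina3n and 95 to the 10 others, and how the authors' counting treated reads shared among them is not given in the sources used here.

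Lcn2, the secreted lipocalin, spans 32384633 to 32388252 of chromosome 2 (minus strand). It was low in all libraries, with 443 exonic counts in total. The highest cell, BRP568, held 155 counts (9.40 CPM), BRP572 held 149, BRP571 74 and BRP564 50. These 4 cells were the only ones above 1 CPM. BRP570, second for Gfap and first for S100b, held 6 counts, and BRP566 and BRP567 held none. Outside the upper BRP cells there were 6 counts, in BRP529 and BRP536. No cell reached 10 CPM, and 20 of the 28 cells held no count.

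Cd44, the hyaluronan receptor at the cell surface, spans 102811141 to 102901665 of chromosome 2 (minus strand). It ran from 141 CPM in BRP567 over a median of 294 to 486 CPM in BRP571 in the upper BRP cells, a 3.44-fold range. The only other cell at 10 CPM or more was BRP529 with 46.2 CPM (9 of 28 cells, 32.1%, 15.9 to 52.4%). BRP528, which held Gfap, S100b and Serpina3n, had 2.64 CPM of Cd44. In the F cells the highest value was 1.19 CPM in F16, which was 1 count.

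Lgals3, the gene of the galactoside-binding lectin galectin-3, spans 47367751 to 47386160 of chromosome 14 (plus strand). Outside the upper BRP cells it was at or near 0. The upper BRP cells ran from 75.5 CPM in BRP572 over a median of 143 to 681 CPM in BRP568. The highest of the 20 other cells was F7 with 0.460 CPM, from 4 counts, and 16 of the 28 cells held none. BRP528 and BRP529, which held most of the other genes, had no Lgals3 count at 20078115 and 22340348 exonic counts. Lgals3 was at 10 CPM or more in 8 of 28 cells (28.6%, 13.2 to 48.7%).

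All 8 upper BRP cells exceeded all 20 others for 4 of the 8 genes, Vim, Nes, Cd44 and Lgals3. Over all genes at 10 CPM or more in at least 1 cell, 407 of 13374 did so (3.04%). For Vim the lowest of the 8 cells was 3.81-fold above the highest of the others, for Nes 6.09-fold and for Cd44 3.06-fold, BRP529 being the highest other cell each time. Gfap fell outside the count through BRP528 alone, and without that cell the count was 5. Without BRP528 and BRP529 it was 6, S100b being the other gene added. S100b thus overlapped through BRP528 and BRP529 alone. Serpina3n overlapped widely, and Lcn2 was below the level needed to enter. The 8 genes together took 0.841 to 1.77% of the exonic counts in the upper BRP cells, of which Vim held most. They took at most 0.205% in the lower BRP cells, in BRP529, and at most 0.0261% in the F cells, in F7.

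Per kb of annotated exon, the order of the genes in the upper BRP cells could be compared. Vim came first in all 8 cells with a median of 1871 CPM per kb. S100b followed with a median of 82.0, Lgals3 with 77.1, Nes with 55.8, Cd44 with 43.4, Gfap with 36.3, Serpina3n with 13.4 and Lcn2 with 0.649 CPM per kb. The middle of this order was not stable between cells. S100b exceeded Lgals3 in 4 of the 8 cells, Lgals3 exceeded Nes in 6, Nes exceeded Cd44 in 6 and Cd44 exceeded Gfap in 4, so these neighbours did not differ beyond the spread of the cells. Gfap exceeded Serpina3n, and Serpina3n exceeded Lcn2, in 7 of 8 cells each. Gfap took places 3 to 7, reaching 376 CPM per kb in BRP568 and falling to 15.8 in BRP572.

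The spread over the 8 cells also ordered the genes. The coefficient of variation (SD over mean) of the CPM was 0.224 for Vim, 0.349 for Nes, 0.457 for Cd44, 0.945 for Lgals3, 1.13 for S100b, 1.35 for Gfap and 2.01 for Serpina3n. Among the 7518 genes with a median of at least 10 CPM in these cells the median was 0.588. Vim was at percentile 3.18 of these genes, Nes at 14.9 and Cd44 at 30.3. Lgals3 was at percentile 87.4, S100b at 95.5, Gfap at 98.7 and Serpina3n at 99.9. The genes compared were not matched for level, and the part of level in these percentiles was not tested. The value of Lgals3 rested on BRP568, without which it was 0.458 (percentile 33.7), and that of Serpina3n fell to 1.21 (percentile 97.2) without BRP564. Without BRP568 the value of Vim was 0.124. With any 1 of the 8 cells left out, Gfap stayed at or above 1.21 and S100b at or above 1.02, while Nes stayed at or below 0.380 and Cd44 at or below 0.500. Among these genes of all levels from 10 CPM, Vim and Nes thus had low coefficients of variation. Those of Gfap, S100b and Serpina3n were among the highest. The 8 cells had similar depth, within 12969692 and 19798892 exonic counts.

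**Figure D2:**
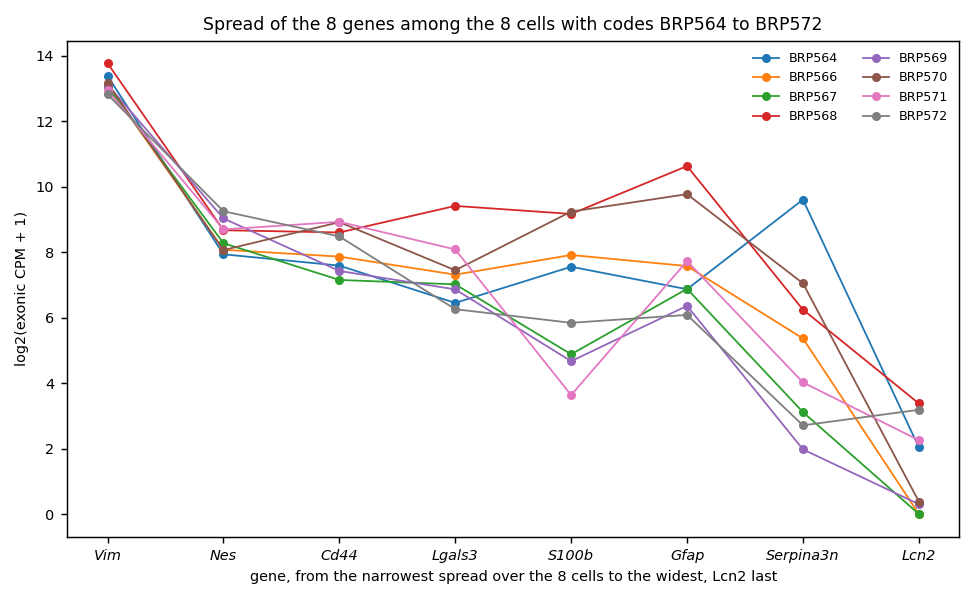
Level of the 8 genes in each of the upper BRP cells. The y axis is log2(exonic CPM + 1), the x axis the genes from the smallest to the largest coefficient of variation with Lcn2 last, and each line a cell. The lines run together for Vim and fan out towards S100b, Gfap and Serpina3n, with BRP568 (1584 CPM) and BRP570 (874 CPM) highest for Gfap and BRP564 (778 CPM) for Serpina3n.

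Within these 8 cells the genes did not rise and fall as one. Over the 28 pairs of genes, Spearman's rho across the 8 cells had a median of 0.30 and ran from -0.86 for Nes and Serpina3n to 0.95 for Gfap and Lgals3. It was below 0 in 6 pairs, of which 5 involved Nes: with Serpina3n, S100b (-0.57), Vim (-0.57), Gfap (-0.38) and Lgals3 (-0.14). Gfap and S100b had a rho of 0.50 and S100b and Serpina3n of 0.69. Over all 28 cells the same pairs gave rho values between 0.42 and 0.83 with a median of 0.70, and over the 20 BRP cells the median was 0.72. These larger values run over cells of more than 1 code run, and those over 28 cells also over wide differences in depth and the zeros of the F cells. All are descriptions, and whether cells of a run share a culture, a slice or a preparation is not stated.

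BRP528 and BRP529 stood apart from the other lower BRP cells. The 8 genes took 0.193 and 0.205% of their exonic counts, against 0.0365% or less in the other 10. BRP528 held Gfap, Vim, S100b and Serpina3n but next to no Nes (4.23 CPM) or Cd44, and BRP529 held Vim, Nes, S100b and Cd44 but little Gfap (7.43 CPM) and Serpina3n (0.448 CPM). The pair therefore carried different sets of these genes. BRP528 also held the GABAergic genes Gad1 at 1136, Gad2 at 780 and Slc32a1 at 798 CPM, the neuronal gene Snap25 at 2015 CPM, the myelin gene Mbp at 455 CPM and the astrocyte genes Aldoc at 589 and Aqp4 at 142 CPM. BRP529 held Snap25 at 607, Aqp4 at 418, Olig1 at 831 and Pdgfra at 257 CPM. Markers of several cell types thus stood together in each of these libraries, and their part in the values of the 8 genes was not tested. F7, the only F cell above 1 CPM of Vim, held the glutamate transporter gene Slc1a2 at 4350 CPM, Olig1 at 3210 CPM and Gad1 at 1092 CPM. Slc1a2 was also at 164 to 2459 CPM in the lower BRP cells. Only 3 of 12 astrocyte markers and 1 of 5 oligodendrocyte precursor markers reached 10 CPM in F7, where Aqp4 and Aldoc were at 0.

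Genes whose level over the 28 cells ran most like one of the 8 were sought among 9312 genes at 10 CPM or more in at least 6 cells. The rho values that follow are over 28 cells. Gfap was followed by Plp2 (0.89), the astrocyte phosphoprotein gene Pea15a (0.89) and Papss2 (0.88). Vim was followed by Apoe (0.94), the gene of the lipid carrier apolipoprotein E, a row named Mir703 (0.93) and Ccng1 (0.93). For Nes these were Serp1 (0.92), Ptrf (0.91) and Nfib (0.91), the last a nuclear factor I gene. For S100b they were Cdca8 (0.94), Plcd4 (0.93) and Lrch1 (0.92). For Serpina3n they were Npl (0.87), Dpy30 (0.86) and Adprm (0.86), for Cd44 Glipr2 (0.88), Rcn3 (0.87) and Inppl1 (0.87), and for Lgals3 the interferon-induced GTPase gene Igtp (0.93), Pipox (0.89) and Dynlrb2 (0.87). No gene was named for more than 1 of the 7 searched. Lcn2 reached 10 CPM in no cell and was not searched.

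Of 14 other filament genes, 9 reached 10 CPM in some cell and 0 of these were higher in all upper BRP cells than in any other, where the share over all genes was 3.04%. Synm, the gene of the filament protein synemin, had a median of 22.3 CPM in the upper BRP cells and passed 10 CPM in 5 of them, and it reached at most 9.27 CPM elsewhere. The 3 with the highest mean CPM over all cells were the neurofilament genes of neurons, whose medians in the upper BRP cells were 0 CPM for Nefl, 0.154 for Nefm and 0.0253 for Nefh. They reached 2449 CPM (Nefl, BRP543), 1088 CPM (Nefm, BRP536) and 295 CPM (Nefh, BRP528) in the lower BRP cells. The muscle filament gene Des and the keratin genes Krt8 and Krt18 were at 0 in all 8 upper BRP cells. Of the 8 genes of linkers and of filament turnover, 0 were above all other cells, again beside 3.04% of all genes, so that neither count of 0 sets these lists apart. The cytoskeletal linker Macf1 had a median of 636 CPM in the upper BRP cells and reached 1219 CPM in F24, and the linker Dst a median of 85.8 CPM and 3277 CPM in F24. The kinase Pak1 had a median of 120 CPM and reached 2487 CPM in F7.

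Pan-reactive genes, which are known to rise in astrocytes after both inflammation and ischaemia, were present in part. Beside the genes above, 8 were in the table, of which 7 reached 10 CPM in some cell. Of these 7, 4 were higher in all upper BRP cells than in any other, against 3.04% of genes. These were the sphingosine phosphate receptor S1pr3 (34.7 to 390 CPM), the small heat shock protein gene Hspb1 (6.57 to 247 CPM), the oncostatin M receptor Osmr (36.9 to 277 CPM) and the copper carrier Cp (3.93 to 115 CPM). For S1pr3 the margin was narrow, with 34.0 CPM in BRP528. The chemokine gene Cxcl10 ran from 1.39 to 879 CPM, and the protease inhibitor gene Timp1 had a median of 26.2 CPM but was highest in BRP535, at 911 CPM. BRP535 held no count of any of the 8 genes but Vim.

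Reactive genes have also been grouped into an inflammation type (A1) and an injury type (A2). Of 11 A1 genes, 10 reached 10 CPM in some cell. Of these 10, 1 was above all other cells, close to the 3.04% of all genes. It was the interferon-induced GTPase gene Gbp2 with 24.2 to 307 CPM against at most 1.84 CPM elsewhere. Ggta1, a galactosyltransferase gene, had a median of 45.3 CPM, and Psmb8, an immunoproteasome subunit gene, 31.2 CPM, and both overlapped with BRP529. Of 12 A2 genes, 10 reached 10 CPM in some cell. Of these 10, 2 were above all other cells beside the same 3.04%, the surface protein genes Cd109 (137 to 426 CPM) and Tm4sf1 (100 to 664 CPM). S100a10, the annexin partner, had a median of 542 CPM and overlapped with BRP534 at 332 CPM. By summed level the upper BRP cells held 155 to 530 CPM of A1 genes and 769 to 2125 CPM of A2 genes. The lists differ in length and in transcript length, so these sums do not rank them.

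**Figure D3:**
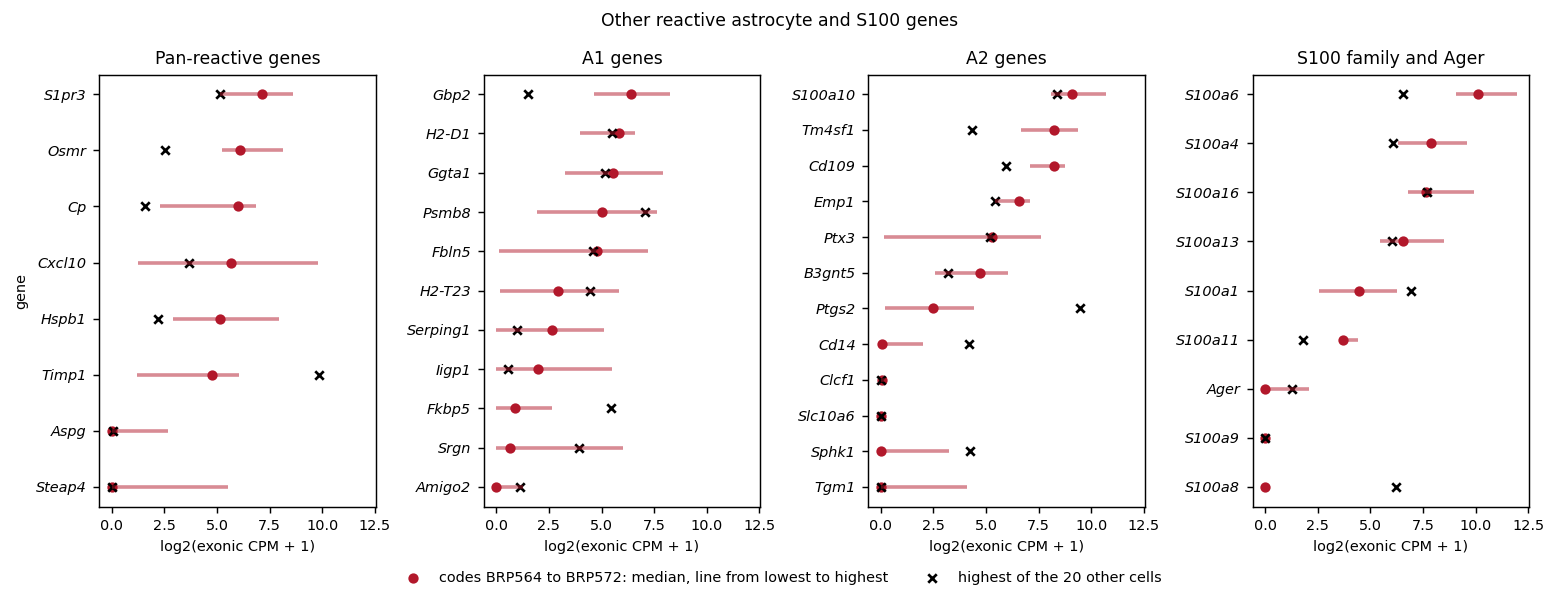
Further reactive astrocyte genes and the S100 family. The x axis is log2(exonic CPM + 1) and each row a gene. The red point is the median and the line the range over the 8 upper BRP cells, and the cross is the highest of the 20 other cells. The line clears the cross for 4 pan-reactive, 1 A1, 2 A2 and 3 S100 genes. Of all genes compared, 3.04% were likewise above all other cells.

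S100b belongs to the S100 family of small calcium-binding proteins. Of 9 further genes, including the receptor gene Ager, 7 reached 10 CPM in some cell. Of these 7, 3 were above all other cells, beside 3.04% of all genes. They were S100a6 (535 to 3945 CPM), S100a4 (76.9 to 759 CPM) and S100a11 (10.4 to 20.1 CPM). S100a16 (110 to 981 CPM) overlapped with BRP528 at 208 CPM. S100a8 and S100a9, which neutrophils carry, were at 0 in the upper BRP cells. The other genes of the list overlapped with other cells or stayed low.

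Of 13 genes that act upstream of Gfap, 1 was above all other cells, which is near the 3.04% of all genes and does not set the list apart. It was the nuclear factor I gene Nfib with 850 to 1698 CPM, followed by BRP529. Sox9, a transcription factor of astrocytes, ran from 468 to 1152 CPM in the upper BRP cells, reached at most 75.8 CPM in the lower BRP cells, and stood at 1180 CPM in F12. Stat3, which transmits cytokine signals to the Gfap gene, ran from 172 to 482 CPM, with 167 CPM in BRP535 and 321 CPM in F1.

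Of 15 ligands, receptors and partners of Lcn2, Cd44 and Lgals3, 12 reached 10 CPM in some cell. Of these 12, 4 were above all other cells, beside 3.04% of all genes. Ezr (446 to 1081 CPM) and Msn (122 to 278 CPM) encode ezrin and moesin, which link CD44 to actin. Lgals1 (150 to 781 CPM) is the galectin-1 gene, and Lgals3bp (up to 56.7 CPM, against at most 11.9 CPM elsewhere) encodes a secreted binding partner of galectin-3. The lipocalin receptor gene Slc22a17 went the other way, with a median of 46.7 CPM in the upper BRP cells and 9464 CPM in F12. Has1, a hyaluronan synthase gene, held no count in the upper BRP cells.

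Markers of cell types were read beside these genes. The 12 astrocyte markers summed to 3369 to 9805 CPM in the upper BRP cells, 356 to 3768 CPM in the lower BRP cells and 1.19 to 5636 CPM in the F cells. Of these 12 markers, 11 had a median of at least 10 CPM in the upper BRP cells and 5 in the lower BRP cells. Slc1a2, among the 3 highest of the list, went the other way, with medians of 192 and 804 CPM. In BRP538 it made up 2459 of the summed 2649 CPM, so the sums of the lower BRP cells can rest on 1 gene. In the upper BRP cells the water channel gene Aqp4 was at 652 to 2062 CPM, while the connexin gene Gjb6 was at 0 in all 8. The 10 neuron markers summed to 397 to 1067 CPM there, largely Map2, Stmn2 and Gap43, with medians of 0 for Snap25 and Rbfox3, against 6099 to 11584 CPM in the lower BRP cells and 2119 to 18071 CPM in the F cells. Since Vim, S100b, Cd44 and Lgals3 are known from other cells as well, the lists of those cells were also summed. The 9 microglia and macrophage markers summed to 0.923 to 35.5 CPM in the upper BRP cells and the 5 endothelial markers to 0 to 19.7 CPM. The 8 mural cell and fibroblast markers summed to 3378 to 9196 CPM, of which the smooth muscle actin gene Acta2 made up 3358 to 9170 CPM. Of the other 7 genes of the list, Pdgfrb (median 14.7, up to 55.4 CPM) and Col1a2 (median 13.7, up to 80.8 CPM) passed 10 CPM in 6 and 4 of these cells, while Col1a1, Dcn and Lum reached at most 1.33, 0.0617 and 0.102 CPM. The 5 oligodendrocyte precursor markers summed to 570 to 1143 CPM, mainly Olig1. Their sum had a median of 18.4 CPM in the lower BRP cells and 0.158 CPM in the F cells. It reached 1285 CPM in BRP529, 896 CPM in BRP541 and 3210 CPM in F7. In the upper BRP cells the 3 ependymal markers summed to 92.0 to 272 CPM, of which Foxj1 made up 81.2 to 247 CPM. The ependymal sum had a median of 0.516 CPM in the lower BRP cells and 0 in the F cells, but reached 104 CPM in BRP534 and 836 CPM in F7. The 4 genes of dividing cells summed to 29.9 to 548 CPM in the upper BRP cells and to at most 340 CPM in the lower BRP cells, in BRP541. The part of Acta2-, Olig1-, Foxj1- or cycle-related signal in the levels of the 8 genes was not tested.

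**Figure D4:**
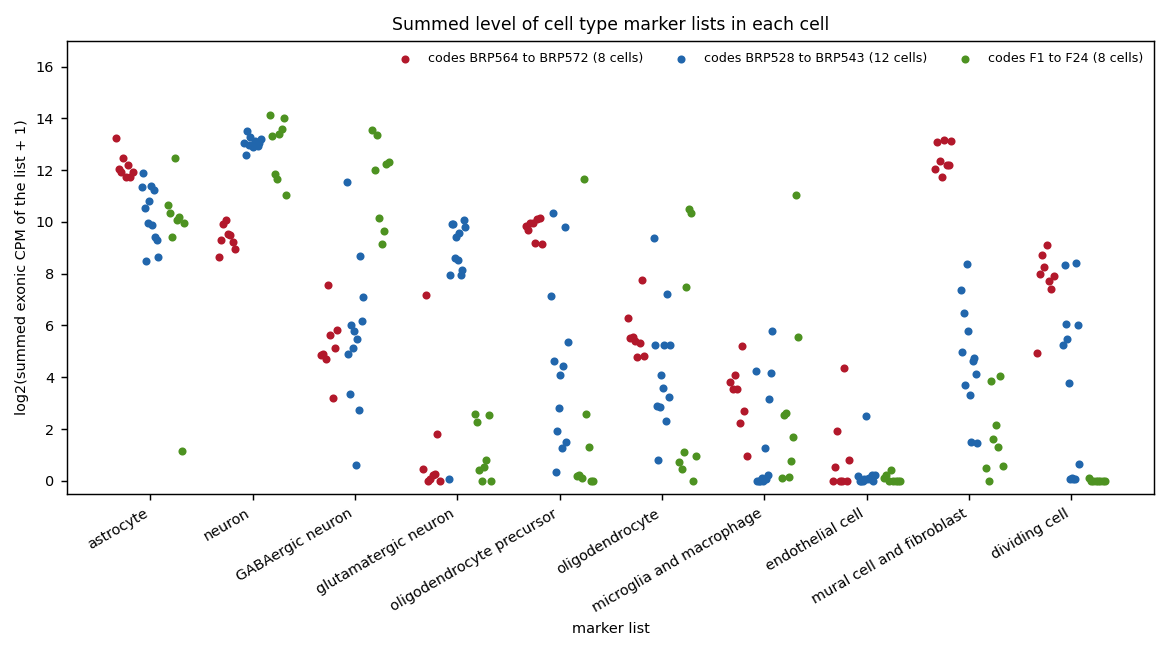
Summed level of cell type marker lists in each cell. The y axis is log2(summed exonic CPM of the list + 1), the x axis the list, each point a cell, and the colours the code runs. In the upper BRP cells (red) the astrocyte (3369 to 9805 CPM) and mural cell and fibroblast lists (3378 to 9196 CPM) were high, the neuron list was below that of every other cell and the microglia list did not pass 35.5 CPM.

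The second table counts reads on introns. Gfap had 0 intronic counts beside 59189 exonic ones, but so did all 20 of its neighbours on the minus strand of chromosome 11. The gene sat in a run of 323 genes at 0 intronic counts in all cells, which held 7371583 exonic counts, so that the 0 of Gfap cannot be told apart from that of its neighbours. S100b also had 0 intronic counts, beside 39831 exonic ones and 5.82 kb of introns, whereas none of its 20 neighbours on its strand was at 0. For S100b a count of 0 allows an intronic share of up to 0.00753%. Among all 18724 genes with introns in the table, 14.4% were at 0.

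Intronic counts of the other 6 genes were few except for Cd44. Cd44, with 83.7 kb of introns, had 3594 in 26 cells, or 7.48% of its counts (7.24 to 7.72%), and 987 of them were in BRP570. The lower BRP cells held 1156 of the 3594, of which 735 were in BRP543 and 257 in BRP539. Their exonic Cd44 outside BRP529 came to at most 53 counts a cell. Vim had 236 intronic counts (0.0176%), 154 of them in BRP564, and Nes 209 (0.389%), 125 of them in BRP566. Lgals3 had 78 (0.270%), 52 of them in BRP567. Serpina3n had 4 and Lcn2 1, all in F7. The intervals cover counting error only, since reads of amplified RNA are not independent molecules. Gfap, S100b and Cd44 overlap genes on the opposite strand (Gm26668, Dip2a and Gm23731) with 0 bases of shared exon, and the counting's use of strand is not given in the sources used here.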

How the data were processed

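The authors deposited raw counts per gene and cell, as whole numbers without normalization, for exons and for introns of 28 cells. Per the labels, the submitters' processing notes name bcl2fastq 2.17, STAR 2.4.0 and mm10, while the counting tool, annotation and strand setting are not given in the sources used here. All 28 columns were used. Of these, 0 could be matched to a sample by name, so no groups were formed and no test was run.

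CPM were computed from the exonic counts of each cell, with log2(CPM + 1) for plots. A level of 10 CPM counted as present, with 95% exact binomial intervals. Gene lengths came from GENCODE M21. The rule for named genes took the 8 genes in full, the 3 genes with the highest mean CPM of each list, genes of counts of 5 or fewer, and the 3 genes most like each of the 8. These genes and lists were chosen with earlier results of these data known. The split of the BRP codes at their widest gap, and the look at neighbouring introns, were chosen after the data were examined. For the alternatives, edgeR 4.0.16 (TMM factors), DESeq2 1.42.0 (size factors), thinning to 800000 exonic counts and left-out cells were used, with R 4.3.3, Python 3.11.15, pandas 2.3.3 and scipy 1.17.1. The search for like genes and the call of genes above all other cells were tested on simulated data. The other calculations were not tested in this way. Depth ranged from 838343 to 26770944 exonic counts per cell.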

Additional observations from a re-analysis of the deposited data

How the results depend on the processing

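The settings that use a single code run, leave out BRP528 and BRP529, or leave cells out of the coefficient of variation were chosen after seeing the data. No paired analysis was possible because the columns carry no replicate numbers and no test was run. Scaling by TMM factors, by DESeq2 size factors or without the 10 genes with most exonic counts, adding intronic counts, thinning to 800000 exonic counts and leaving out BRP528 and BRP529 together moved no share, median level or rho beyond its spread. The scalings, the added intronic counts and the thinning, which were applied to this count after seeing the data, left 4 of the 8 genes above all other cells. Over the alternatives other than leaving out each cell in turn, 187 values stayed, 45 moved and 1 reversed. Those that stayed include median levels judged by the wide spread.

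The share of cells with a gene depended on the minimum and on the cells taken. At 1 exonic count or more it was 60.7% for Gfap, 75% for Nes and for Cd44, 57.1% for S100b, 60.7% for Serpina3n and 28.6% for Lcn2. At 1 CPM it was 64.3% for Nes and 14.3% for Lcn2, and at 100 CPM 46.4% for Vim and 17.9% for S100b. In the BRP cells alone Vim was at 90%. In the F cells alone the share was 12.5% for Vim and 0% for Gfap, Nes, S100b, Serpina3n, Cd44 and Lgals3. In the upper BRP cells alone it was 62.5% for Serpina3n and 100% for Gfap, Vim, Nes, S100b, Cd44 and Lgals3. In the lower BRP cells alone it was 8.33% for Gfap and for Cd44, 16.7% for S100b and 0% for Lgals3.

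The median level moved in the upper BRP cells alone, to 8873 CPM for Vim, 358 for Nes, 294 for Cd44 and 143 for Lgals3, from 62.9, 4.84, 0.607 and 0 CPM over all 28 cells. For Gfap, S100b, Serpina3n and Lcn2 it was 153, 122, 27.7 and 1.70 CPM there, against 0.0752, 1.95, 0.565 and 0 CPM over all 28 cells. These counted as unmoved only because the SD over 28 cells was wider. In the 8 upper BRP cells the median rho over pairs was 0.30, and rho was 0.48 for Gfap and Vim and 0.95 for Gfap and Lgals3. For Nes and Serpina3n it was 0.61 over 28 cells, 0.29 over the BRP cells and -0.86 over the 8 cells, where the sign turned; the cause was not tested. Pearson's r of log2(CPM + 1) over 28 cells was 0.90 for Gfap and S100b and 0.91 for Gfap and Lgals3. The median over cells of the intronic share was 0% for Vim, Nes, Serpina3n and Lcn2, 1.71% for Cd44 and 0.0385% for Lgals3.

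With each cell left out in turn, the share at 10 CPM ran from 29.6 to 33.3% for Gfap and for Cd44, 66.7 to 70.4% for Vim, 40.7 to 44.4% for Nes, 33.3 to 37.0% for S100b, 25.9 to 29.6% for Serpina3n and for Lgals3, and stayed at 0% for Lcn2. Median levels ran from 0.0674 to 0.0830 CPM for Gfap, 43.3 to 82.5 for Vim, 4.23 to 5.44 for Nes, 0.627 to 3.27 for S100b, 0.448 to 0.682 for Serpina3n and 0.269 to 0.945 for Cd44, and stayed at 0 for Lcn2 and Lgals3. The median rho ran from 0.67 to 0.72, and rho from 0.80 to 0.86 for Gfap and Vim, 0.69 to 0.75 for Gfap and S100b, 0.68 to 0.77 for Gfap and Lgals3 and 0.59 to 0.68 for Nes and Serpina3n. The number of genes above all other cells was 4 or, without BRP528, 5, and without BRP528 and BRP529 together it was 6. Levels under 3.58 CPM cannot be told from 0 in the shallowest cell.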
